A study of Mus musculus with 12 samples.

Results

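Potassium channel pore subunits are the proteins that line the potassium-selective path through the cell membrane. They were taken as every gene whose symbol was Kcna, Kcnb, Kcnc, Kcnd, Kcnh, Kcnq, Kcnj, Kcnk or Kcnn followed by a number, with a mean CPM (counts scaled to a common library total) of at least 1 over the 12 libraries. Of 62 such symbols in the deposited expression files, 50 met this minimum, 10 lay below it and 2, Kcnk4 and Kcnk18, had no row in the count table used here. The 50 members are 6 Kcna, 2 Kcnb, 4 Kcnc, 3 Kcnd, 7 Kcnh, 4 Kcnq, 13 Kcnj, 8 Kcnk and 3 Kcnn genes among 35812 gene IDs. Just inside the minimum stood Kcnj5 with a mean CPM of 1.06 and Kcnh6 with 1.11, and just outside it Kcnh8 with 0.719 and Kcnq1 with 0.704.

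Hippocampi of 12 C57BL/6 mice, all 8 weeks old, gave the libraries, with 3 independent mice in each of 4 groups. F0_Ctl denotes normal mice, F0_Dep mice in which stress induced depression, F1_Ctl the offspring of normal males and F1_Dep the offspring of males depressed by stress. The labels name no stress procedure, father or litter, so offspring of a group may share a father, and the sex of the mice sampled is not stated there. Sequencing lanes are named for F1_Ctl alone, and whatever in the sequencing set that group apart cannot be told apart from its parentage.

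Voltage-gated subunits (Kcna, Kcnb, Kcnc, Kcnd, Kcnh and Kcnq) open on depolarization, repolarize the action potential and set how fast a neuron can fire. Inward rectifiers (Kcnj) and tandem-pore leak subunits (Kcnk) hold the resting potential, in glia as well as in neurons, and some Kcnj channels are opened by G proteins below neurotransmitter receptors. Kcnn subunits open on intracellular calcium and carry part of the current that follows a spike. In the hippocampus these families lie on different compartments, Kcna on axons, Kcnd on dendrites, Kcnq on the axon initial segment and Kcnj10 on astrocytes.

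What the members have in common in sequence is the selectivity filter, a run of 4 residues whose backbone binds potassium ions. Its codons were searched in frame in the coding sequence of every gene, on the coding strand, as a codon NTN followed directly by GGN, then by TAN (tyrosine form) or TTN (phenylalanine or leucine form), and then by GGN again, where N is any base. In GENCODE M21 transcripts on GRCm38, 49 of 50 members held such a run, against 5.35% of 21571 coding genes. The tyrosine form stood in 37 members and 1.65% of coding genes, and the other form in 15 members and 3.83% of coding genes. All 7 Kcnh members had the phenylalanine or leucine form alone, as did Kcnj8 and Kcnj11 among the 13 Kcnj members. Of the 8 Kcnk members 6 held 2 runs, and Kcnk1 held no match. Other codons, such as CTN for leucine, were not searched. A run not found here therefore does not mean that the protein lacks a filter. The following 30-base stretches, printed 5′ to 3′ on the coding strand with the filter codons in capitals, show both forms in the members on which the results below turn.
Kcna1: atgaccactGTGGGATACGGTgacatgtac
Kcnb2: atgaccactGTGGGCTACGGTgacatttac
Kcnd3: atgactacaCTGGGATATGGAgacatggtg
Kcnj6: gaaaccaccATCGGTTATGGCtaccgggtc
Kcnj13: caacttacaATTGGTTATGGTaccatgttt
Kcnh1: ctcaccagtGTGGGCTTTGGTaacattgcc
Kcnk13, first of 2 runs: gtttctaccATAGGGTTTGGGatgacaaca
The stretch of Kcnb2 lies at chr1:15710040-15710069 on the plus strand and that of Kcnj6 at chr16:94832768-94832797 on the minus strand. Those of Kcnd3 and of the first run of Kcnk13 cross an exon junction. A match describes these letters and was not tested for function.

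Some members also lie next to each other in the genome. Within 150000 bases of each other were Kcnj9 and Kcnj10 on chromosome 1 (11891 bases apart), Kcnj16 and Kcnj2 on chromosome 11 (38195), Kcna3 and Kcna2 on chromosome 3 (63075), and Kcna5, Kcna1 and Kcna6 on chromosome 6 (104984 and 61944). Exons of 16 members overlapped a gene on the opposite strand, among them Kcnd3, Kcnj3, Kcnj6, Kcnj13, Kcnk1 and Kcnq5. The labels do not say whether the authors counted by strand, so reads of such partners cannot be told apart.

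Each library held 18277208 to 23083678 expected counts in all, and all 50 members passed the low-count filter. Of hippocampal neurons, all 10 dentate granule cell, 6 CA1 and 9 CA2 and CA3 markers listed were detected in every library. All 11 striatal and all 5 thalamic neuron markers passed the low-count filter as well, so detection alone does not check the dissection. A marker level here is the median over a list's genes of the log2 CPM minus its mean over the 12 libraries. Single libraries stood apart in these levels. Choroid plexus, the fluid-secreting tissue beside the hippocampus, stood at 2.81 in F0_Ctl 3, 3.88 in F1_Ctl 3 and 1.60 to 2.88 in F1_Dep, and at -3.76 to 0.02 in the other libraries. F1_Dep 1 stood at 2.78 for striatal neurons and -1.92 for dentate granule cells, against -0.75 to 0.48 and -0.64 to 0.62 in the other 11 libraries. CA1 markers ran from -1.32 in F0_Ctl 3 to 1.19 in F0_Ctl 1.

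The level per gene length could be compared between members in FPKM, which the authors deposited for the 9 libraries of F0_Ctl, F0_Dep and F1_Dep. Kcnk1, a weak leak subunit, had a mean FPKM of 50.6 ± 4.51 (SD over 9 libraries) and the G protein-gated rectifier subunit Kcnj3 one of 43.8 ± 10.2. Their ranges overlapped, so their order lies within the spread of the libraries. Kcnc1 (31.0), Kcnj4 (29.3), Kcnd2 (29.3) and Kcnj10 (29) lay below them in mean and could not be ordered beyond their spread. At the other end Kcnj5 had a mean FPKM of 0.147 and Kcnh6 one of 0.230.

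**Figure D1:**
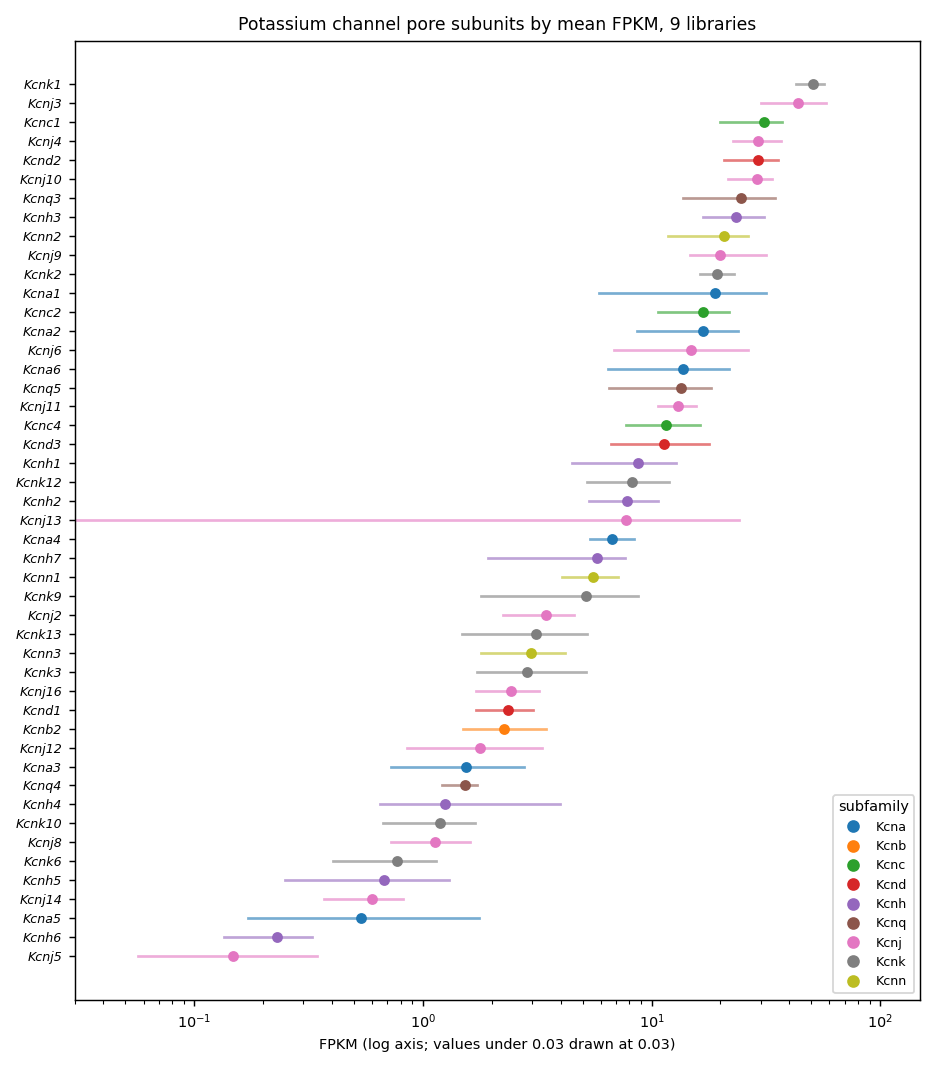
Mean FPKM (log axis) of 47 members as a point, with a line from the lowest to the highest of 9 libraries of F0_Ctl, F0_Dep and F1_Dep, coloured by subfamily. Of those drawn, Kcnk1 stands highest at a mean of 50.6, Kcnj5 lowest at 0.147, and Kcnj13 reaches 24.1 in 1 library and is not listed in another.

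The comparison of F1_Dep with F0_Dep, offspring of depressed males against depressed mice, was the only 1 of the 5 pairwise comparisons in which members were called changed. A call here is an adjusted p under 0.05 by edgeR's quasi-likelihood test with Benjamini-Hochberg adjustment over all 16178 genes fitted. Called were 4 of 50 members, against 2.87% of all genes: 1 was higher in F1_Dep, against 1.31%, and 3 were lower, against 1.56%. The leak subunit Kcnk13 was higher, and the delayed rectifier Kcnb2, the A-type subunit Kcnd3 and the G protein-gated rectifier Kcnj6 were lower. Without any 1 of the 3 F0_Dep or the 3 F1_Dep libraries no member was called, against 0.0482% to 1.04% of all genes, and without F1_Ctl 2 only 1 was, against 1.16%. Without F0_Ctl 1, F0_Ctl 3, F1_Ctl 1 or F1_Ctl 3 it was 7, against 4.28%, 5.31%, 6.59% and 6.98%. The count was 9 by DESeq2, against 8.85% of its genes, and 22 by limma voom with library weights, against 29.8%. By limma on FPKM it was 9 of the 44 members tested there, against 12% of the genes tested there.

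Kcnk13 (ENSMUSG00000045404, chromosome 12, 99964499 to 100062682) encodes a leak subunit that is well known from microglia. Its CPM was 4.84, 6.75 and 10.4 in F0_Ctl, 4.72, 4.82 and 4.36 in F0_Dep, 7.08, 9.74 and 15.6 in F1_Ctl, and 14.2, 13.7 and 11.8 in F1_Dep. Every F1_Dep library lay above every F0_Dep and F0_Ctl library, and the highest single value was in F1_Ctl 3. The log2 fold change of F1_Dep against F0_Dep was 1.51 ± 0.30 (SE), with an edgeR adjusted p = 0.0332, and in FPKM it was 1.14 ± 0.20 on the log2(FPKM + 1) scale, with a limma adjusted p = 0.0136. Markers of some glia, though not of astrocytes, stood higher with it. The level of oligodendrocytes, of whose 10 markers 9 were measured, was -0.62 to -0.44 in F0_Dep and 0.40 to 0.64 in F1_Dep, and 9 of 9 stood higher in F1_Dep. Microglia stood at -0.34 to -0.15 in F0_Dep and -0.01 to 0.15 in F1_Dep, with 10 of 10 markers higher. Of 9 astrocyte markers 6 stood lower in F1_Dep, with a median log2 fold change of -0.051, and 1, Slc4a4, passed the edgeR test. The summed CPM of the oligodendrocyte markers was 2936 to 3256 in F0_Dep and 6120 to 7305 in F1_Dep, and that of microglia 301 to 328 and 376 to 410. Choroid plexus markers also stood higher in F1_Dep, 10 of 10, with a median log2 fold change of 3.94. In F0_Ctl 1, where Kcnk13 had 4.84 CPM, microglia stood at 0.32 and oligodendrocytes at -0.90. In F1_Ctl 3, where it had 15.6 CPM, they stood at 0.51 and 0.78. The part of these cell types in the result was not tested. In bulk tissue, more cells of a type and more RNA per cell cannot be told apart.

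Kcnj6 (ENSMUSG00000043301, chromosome 16, 94748636 to 94997701) forms, with Kcnj3 and Kcnj9, the channels that G protein-coupled receptors open to hyperpolarize neurons. Its CPM was 37.9, 54.7 and 37.2 in F0_Ctl, 81.6, 78.0 and 95.6 in F0_Dep, 61.6, 49.3 and 34.3 in F1_Ctl, and 30, 47.8 and 46.1 in F1_Dep. The 3 F0_Dep values lay above those of all 9 other libraries. F1_Dep differed from F0_Dep by a log2 fold change of -1.04 ± 0.23, with an edgeR adjusted p = 0.0400. F0_Dep differed from F0_Ctl by 0.98 ± 0.23, with an edgeR adjusted p = 0.0657, which missed the threshold, while DESeq2 gave an adjusted p = 0.00183. In FPKM the mean was 10.9 ± 3.86 in F0_Ctl, 23.4 ± 2.5 in F0_Dep and 10.3 ± 3.01 in F1_Dep (SD, n = 3), and limma on log2(FPKM + 1) gave an adjusted p = 0.0154 for F0_Dep against F0_Ctl. Among the 4 groups together Kcnj6 had the smallest edgeR adjusted p of the members, 0.0676.

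Kcnb2 (ENSMUSG00000092083, chromosome 1, 15287254 to 15723750) encodes a delayed rectifier, whose slow current repolarizes the neuronal cell body. Its CPM was 31.8, 29.2 and 25.3 in F0_Ctl, 38.2, 40.1 and 33.0 in F0_Dep, 33.2, 33.6 and 22.5 in F1_Ctl, and 20.9, 22.4 and 24.2 in F1_Dep. All F1_Dep values lay below all F0_Dep and all F0_Ctl values, and F1_Ctl 3 lay among those of F1_Dep. F1_Dep differed from F0_Dep by a log2 fold change of -0.72 ± 0.15, with an edgeR adjusted p = 0.0371.

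Kcnd3 (ENSMUSG00000040896, chromosome 3, 105452330 to 105674002) encodes an A-type subunit, whose current turns on and off quickly and delays firing. Its CPM was 56.7, 85.7 and 74.4 in F0_Ctl, 99.5, 101 and 124 in F0_Dep, 97.1, 89.2 and 67.5 in F1_Ctl, and 66.9, 69.6 and 62.3 in F1_Dep. The 3 F0_Dep libraries were the highest of the 12. The log2 fold change of F1_Dep against F0_Dep was -0.71 ± 0.16, with an edgeR adjusted p = 0.0440, a call lost without TMM scaling. Kcnd2, the main A-type subunit of pyramidal cell dendrites, had 207, 188 and 125 CPM in F0_Ctl, 191, 178 and 169 in F0_Dep, 166, 158 and 142 in F1_Ctl, and 141, 158 and 169 in F1_Dep. Its groups overlapped in all but F1_Dep against F0_Dep, where the log2 fold change was -0.20 ± 0.16 with an edgeR adjusted p = 0.459.

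**Figure D2:**
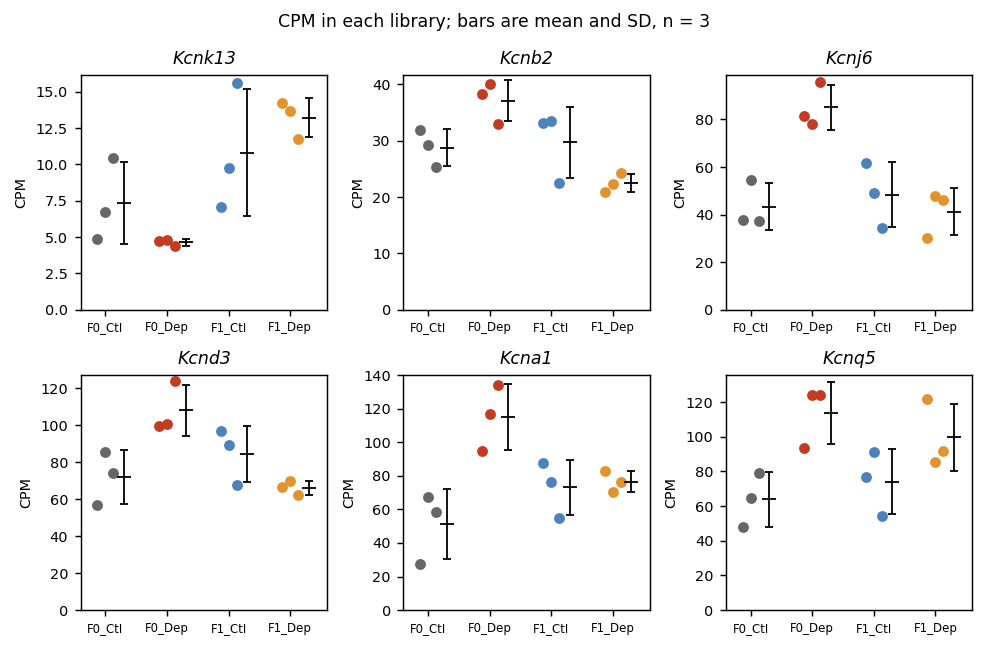
CPM (axis from 0) of Kcnk13, Kcnb2, Kcnj6, Kcnd3, Kcna1 and Kcnq5 in each of the 12 libraries as points, with the mean and SD of each group of 3 as bars. The 3 F0_Dep points lie above all others for Kcnj6, Kcnd3 and Kcna1, F1_Dep 1 lies among them for Kcnq5, and Kcnk13 is lowest in F0_Dep.

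The marker level of dentate granule cells, the excitatory neurons of the dentate gyrus, was 0.24 to 0.62 in F0_Dep and -1.92 to -0.25 in F1_Dep, and the summed CPM of its 10 markers 680 to 929 and 172 to 492. All 10 of these markers stood lower in F1_Dep than in F0_Dep, and 2 passed the edgeR test. In F1_Ctl the dentate level was 0.26 to 0.62. There Kcnj6 had 61.6, 49.3 and 34.3 CPM, Kcnd3 97.1, 89.2 and 67.5, and Kcnb2 33.2, 33.6 and 22.5. Other lists also differed between F1_Dep and F0_Dep. All 5 thalamic neuron markers stood lower in F1_Dep, with a median log2 fold change of -1.0. All 11 striatal neuron markers stood higher, with a median of 2.23, and 2 passed the edgeR test. The part of any cell type in the lower values of Kcnb2, Kcnj6 and Kcnd3 was not tested. Without F0_Ctl 3, F1_Ctl 3 and F1_Dep 1 together, the log2 fold changes of F1_Dep against F0_Dep were -0.86 for Kcnj6, -0.68 for Kcnb2 and -0.72 for Kcnd3. All passed the edgeR test there, as did 8.25% of all genes, and without F1_Dep 1 alone none of them passed. In F1_Dep 2 and F1_Dep 3, which were kept, the dentate level was -0.25 and -0.64, below that of F0_Dep. This omission therefore does not test the part of dentate granule cells.

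Members as a whole stood lower in F1_Dep than in F0_Dep. Their median log2 fold change was -0.197, against 0.006 over all genes, and 34 of 50 were lower. All 3 F1_Dep libraries lay below all 3 F0_Dep libraries for 20 members, against 20.3% of all genes, and above them for 6, against 22.6%. At an unadjusted edgeR p under 0.05 there were 12 lower members, against 11% of all genes, and 5 higher, against 11.3%. The subfamily medians were negative in 8 of 9 subfamilies, and 0.105 in Kcnh.

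F0_Dep against F0_Ctl asks how channel expression in stressed mice differed from that in normal mice. None of the 50 members passed the edgeR test, against 0.494% of all genes, and 15 had an unadjusted p under 0.05, against 19.7%. Of these 14 were higher in F0_Dep, against 10.3% of all genes. By DESeq2 7 members were called, against 7.47% of its genes, all higher, as were 5.32% of its genes: Kcna1, Kcna2, Kcnc1, Kcnd3, Kcnh1, Kcnj6 and Kcnq5. Kcna5, Kcnh6, Kcnj5 and Kcnj14 had no DESeq2 adjusted p in this comparison. By limma voom with library weights it was 5, against 2.83%. By limma on FPKM it was 14 of the 44 members tested there, against 21.2% of the genes tested. All 14 were higher, whereas 10.4% of the genes tested in FPKM were called higher. Without F0_Ctl 2 edgeR called 4 members, against 2.25% of all genes, without F1_Ctl 1 it called 1, against 2.01%, and without F1_Ctl 3 it called 7, against 2.9%. All 3 F0_Dep libraries lay above all 3 F0_Ctl libraries for 15 members, against 13.7% of all genes, and below them for 2, Kcnj4 and Kcnk13, against 13.7%. The median log2 fold change of the members was 0.075, against -0.035 over all genes, with 0.162 without F0_Ctl 1, 0.257 without F0_Ctl 2 and 0.142 without F0_Dep 2. The summed CPM of the 50 members, in which long and abundant transcripts weigh most, was 3424, 3826 and 3100 in F0_Ctl, 4250, 4354 and 4427 in F0_Dep, 3751, 3519 and 2899 in F1_Ctl, and 3482, 3566 and 3705 in F1_Dep. The 3 F0_Dep sums were the highest of the 12. Cell type markers also differed in their median fold change between these groups, though most marker levels overlapped. In F0_Dep against F0_Ctl 10 of 10 choroid plexus markers stood lower, with a median log2 fold change of -2.80, as did 9 of 10 for microglia (-0.25), 8 of 9 for oligodendrocytes (-0.50), 5 of 5 for pericytes (-0.45) and 6 of 6 for CA1 (-0.57). Of CA2 and CA3 markers 8 of 9 stood higher (0.49), and of dentate granule cell markers 8 of 10 (0.14). Endothelial markers were lower in 5 of 7 (-0.30) and striatal neuron markers in 9 of 11 (-0.595). The choroid plexus level was -3.38, -3.76 and 2.81 in F0_Ctl, against -3.355 to -0.499 in F0_Dep. For CA1 it was 1.19, 0.55 and -1.32, against -0.668 to 0.139, and for CA2 and CA3 -1.13, -0.74 and 0.695, against 0.057 to 0.465. Levels of oligodendrocytes, microglia, striatal neurons and dentate granule cells overlapped too, whereas those of pericytes and endothelial cells did not. In these lists edgeR called 1 pericyte marker, Rgs5, and 1 endothelial marker, both lower in F0_Dep. The part of these cell types in the members' values was not tested.

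**Figure D3:**
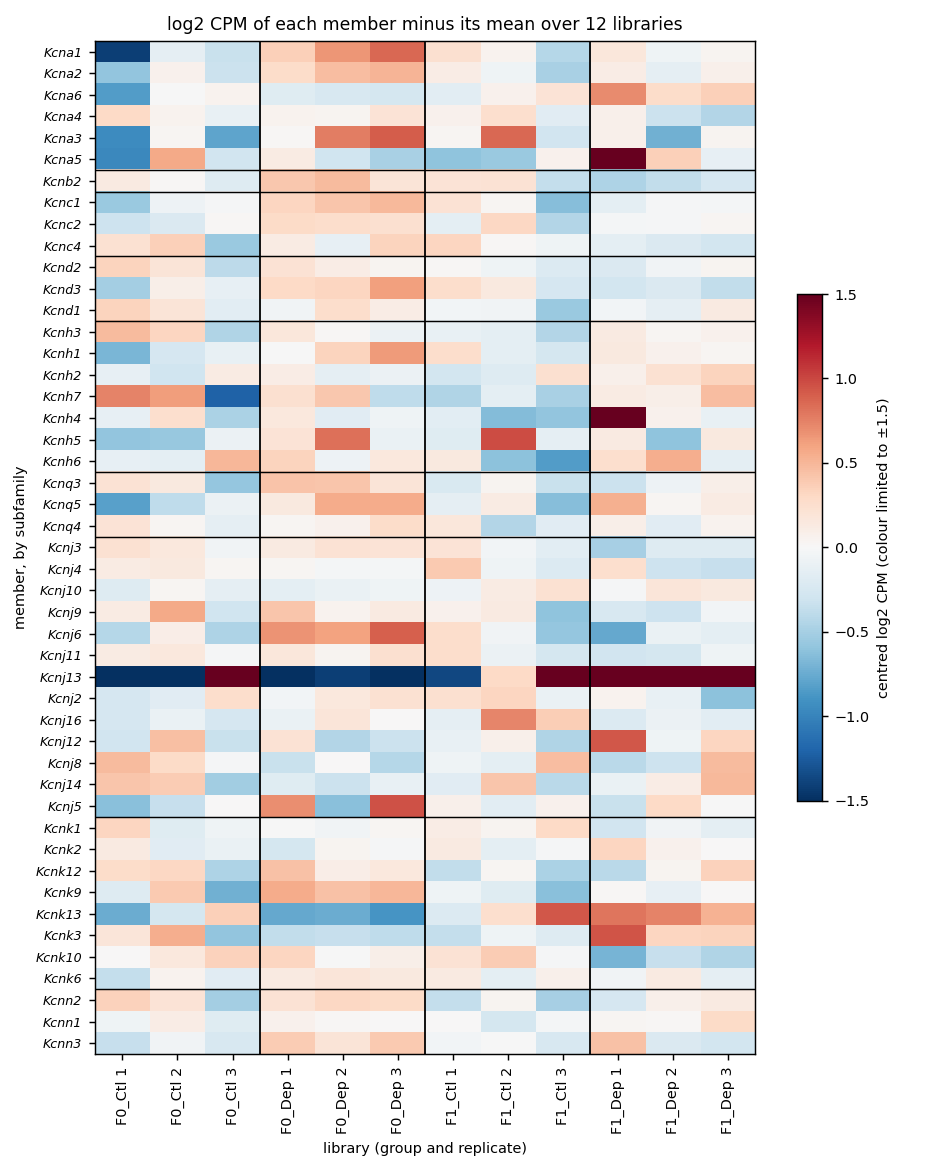
Heat map of log2 CPM minus the mean over 12 libraries (colour limited to ±1.5) for 47 members, in rows by subfamily, and the 12 libraries in columns by group. The F0_Dep columns are mostly red in the Kcna, Kcnc and Kcnq rows, and single cells stand apart for Kcna5, Kcnh4 and Kcnj12 in F1_Dep 1 and for Kcnj13 in F0_Ctl 3, F1_Ctl 3 and F1_Dep.

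Kcna subunits form the low-threshold channels of axons and their terminals. Kcna1 had 27.7, 67.6 and 58.5 CPM in F0_Ctl, 94.9, 117 and 134 in F0_Dep, 87.7, 76.5 and 55.2 in F1_Ctl, and 83.0, 70.5 and 76.2 in F1_Dep. All F0_Dep values lay above all others, and the lowest of the 12 was F0_Ctl 1. The log2 fold change of F0_Dep against F0_Ctl was 1.17 ± 0.27, with the smallest edgeR adjusted p of the members in this comparison, 0.0649. Kcna2, which assembles with Kcna1, had 120, 189 and 145 CPM in F0_Ctl, 218, 248 and 257 in F0_Dep, 194, 172 and 129 in F1_Ctl, and 195, 165 and 190 in F1_Dep. Here too the 3 F0_Dep values were the highest, with a log2 fold change against F0_Ctl of 0.67 ± 0.17 and an edgeR adjusted p = 0.0840. Over the 6 Kcna members the median log2 fold change was 0.342, with 4 higher. F0_Ctl 1 had the lowest Kcna level of the 12 libraries, -0.89, and F0_Ctl spanned up to 0.04.

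Kcnc subunits repolarize fast, which lets neurons fire at high rates. Kcnc1 had 118, 164 and 172 CPM in F0_Ctl, 217, 231 and 242 in F0_Dep, 202, 177 and 111 in F1_Ctl, and 157, 171 and 170 in F1_Dep. Its F0_Dep values were above all others, with a log2 fold change against F0_Ctl of 0.61 ± 0.19 and an edgeR adjusted p = 0.126. All 4 Kcnc members were higher in F0_Dep than in F0_Ctl, with a median log2 fold change of 0.487. There was no overlap for 3, and 13.7% of all genes likewise lay wholly higher. All 4 lay below F0_Dep in F1_Dep without overlap, as did 20.3% of all genes. For Kcnc4 the nearest values were 41.8 CPM in F0_Dep and 41.2 in F1_Dep, with an edgeR adjusted p = 0.340. The Kcnc level was 0.31 to 0.41 in F0_Dep and -0.53 to 0.27 in the other libraries.

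Kcnq subunits carry the M current, which muscarinic receptors close. Kcnq3 had 331, 315 and 191 CPM in F0_Ctl, 384, 379 and 325 in F0_Dep, 244, 293 and 226 in F1_Ctl, and 228, 269 and 303 in F1_Dep. Its F0 groups overlapped in CPM, with a log2 fold change of 0.38 ± 0.19 and an edgeR adjusted p = 0.291. In FPKM they did not overlap, at 13.7 to 24.6 in F0_Ctl and 29.5 to 34.7 in F0_Dep. On the log2(FPKM + 1) scale the difference was 0.73 ± 0.19, with a limma adjusted p = 0.0270. Kcnq5 had 47.7, 64.6 and 79.2 CPM in F0_Ctl, 93.4, 124 and 124 in F0_Dep, 76.7, 91.5 and 54.3 in F1_Ctl, and 122, 85.7 and 91.7 in F1_Dep. Both F0_Dep and F1_Dep lay above F0_Ctl without overlap, by a log2 fold change of 0.83 ± 0.22 (edgeR adjusted p = 0.0892) and 0.64 ± 0.22 (edgeR adjusted p = 0.250). All 4 Kcnq members were higher in F0_Dep than in F0_Ctl and in F1_Dep than in F1_Ctl, with medians of 0.403 and 0.219.

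The Kcnh subunits are relatives of the fly channel ether-a-go-go. Their level, the median over 7 members of the centred log2 CPM, was -0.14 to -0.11 in F0_Ctl, -0.09 to 0.18 in F0_Dep, -0.44 to -0.15 in F1_Ctl and 0.06 to 0.14 in F1_Dep. In this median all F1_Dep libraries lay above those of both control groups. The summed CPM was 306, 282 and 308 in F1_Dep, 327, 316 and 197 in F0_Ctl, and 247, 242 and 214 in F1_Ctl. Of the 7 members 1 lay wholly above F0_Ctl in F1_Dep, against 9.09% of all genes. Wholly above F1_Ctl lay 3, against 8.72%, and none was called by edgeR. Kcnh1 had 38.7, 52.0 and 57.5 CPM in F0_Ctl, 61.7, 78.6 and 96.5 in F0_Dep, 74.2, 55.9 and 51.7 in F1_Ctl, and 68.7, 65.1 and 63.2 in F1_Dep. The F0_Dep and F1_Dep values lay above those of F0_Ctl, by a log2 fold change of 0.68 ± 0.19 (edgeR adjusted p = 0.0947) and 0.41 ± 0.19 (edgeR adjusted p = 0.380). Kcnh3, the member of this subfamily with the highest FPKM, had 132, 119 and 69.1 CPM in F0_Ctl, 107, 96.0 and 88.6 in F0_Dep, 87.4, 85.4 and 69.9 in F1_Ctl, and 104, 96.4 and 98.7 in F1_Dep. F0_Ctl 3 and F1_Ctl 3 were its lowest libraries, and F1_Dep lay above F1_Ctl without overlap, with an edgeR adjusted p = 0.494. Kcnh7, named after its values were seen, showed a like split within F0_Ctl, with 123, 114 and 31.6 CPM. CA1 markers were 1.19, 0.55 and -1.32 in these libraries, and their part in it was not tested.

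Kcnj3 had 229, 218 and 187 CPM in F0_Ctl, 214, 226 and 225 in F0_Dep, 224, 189 and 174 in F1_Ctl, and 137, 170 and 170 in F1_Dep. All F1_Dep values lay below those of every other group, by a log2 fold change of -0.48 ± 0.12 against F0_Dep (edgeR adjusted p = 0.0527), -0.41 ± 0.12 against F0_Ctl (edgeR adjusted p = 0.191) and -0.30 ± 0.12 against F1_Ctl (edgeR adjusted p = 0.271). In FPKM, F0_Ctl 3 (33.7) lay among the F1_Dep values (30.15 to 38.1) for Kcnj3. Limma on log2(FPKM + 1) gave an adjusted p = 0.0147 for F1_Dep against F0_Dep and 0.422 against F0_Ctl. Kcnj9 had 74.6, 102 and 55.7 CPM in F0_Ctl, 90.9, 70.8 and 75.2 in F0_Dep, 71.2, 74.8 and 44.9 in F1_Ctl, and 57.7, 55.2 and 66.3 in F1_Dep. Its F1_Dep values lay below those of F0_Dep alone, with an edgeR adjusted p = 0.301. The mean CPM was highest in F0_Dep for Kcnj3, Kcnj9 and Kcnj6 alike. In CPM the 3 F0_Dep libraries lay above all others for Kcnj6 alone of these. In FPKM, F0_Dep lay above F0_Ctl and F1_Dep for Kcnj6 and also for Kcnj3. For Kcnj3 it was 52.6 to 57.8 in F0_Dep and at most 44.9 in F0_Ctl and F1_Dep. Limma on log2(FPKM + 1) gave Kcnj3 an adjusted p = 0.0262 for F0_Dep against F0_Ctl. For Kcnj9 these 2 groups overlapped in FPKM. A test of the difference between genes was not made.

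No glial or vascular Kcnj member was called in any comparison by edgeR. Kcnj10, by which astrocytes take up potassium, had 148, 174 and 155 CPM in F0_Ctl, 154, 158 and 163 in F0_Dep, 161, 185 and 199 in F1_Ctl, and 168, 192 and 188 in F1_Dep. F1_Dep lay just above F0_Dep without overlap, by a log2 fold change of 0.21 ± 0.10 with an edgeR adjusted p = 0.238. Kcnj16, which joins Kcnj10 in astrocytes, had 9.68, 10.7 and 9.67 CPM in F0_Ctl, 10.8, 13 and 11.6 in F0_Dep, 10.5, 19.3 and 14.9 in F1_Ctl, and 9.98, 10.8 and 10.3 in F1_Dep. F1_Ctl 2 was its highest library, and it was the 1 member with an unadjusted edgeR p under 0.05 for F1_Ctl against F0_Ctl. Kcnj8, of the ATP-sensitive channels of pericytes and vessel muscle, had 3.87, 3.37 and 2.72 CPM in F0_Ctl, 2.17, 2.77 and 2.02 in F0_Dep, 2.64, 2.48 and 3.84 in F1_Ctl, and 2.06, 2.2 and 3.87 in F1_Dep. Its groups overlapped in CPM in all comparisons, with an edgeR adjusted p = 0.357 for F0_Dep against F0_Ctl. In FPKM F0_Dep (0.818 to 1.02) lay below F0_Ctl (1.22 to 1.57), with a limma adjusted p = 0.180 on the log2(FPKM + 1) scale. The pericyte marker level was 0.11 to 0.29 in F0_Ctl and -0.26 to -0.13 in F0_Dep.

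Kcnj13 is the inward rectifier of choroid plexus epithelium. Its CPM was 0.0509, 0.0475 and 30.3 in F0_Ctl, 0.434, 0.887 and 0.164 in F0_Dep, 0.923, 3.14 and 63.3 in F1_Ctl, and 10.8, 26.9 and 19.5 in F1_Dep. The 5 libraries above 10 CPM were the 5 with the highest choroid plexus marker level. The summed CPM of the 10 choroid plexus markers was 40.3 to 4999 in F0_Ctl, 38.6 to 262 in F0_Dep, 130 to 9069 in F1_Ctl and 2792 to 4514 in F1_Dep, and all 10 were higher in F1_Dep than in F0_Dep. The log2 fold change of Kcnj13 was 5.26 ± 2.06 for F1_Dep against F0_Dep, with an edgeR adjusted p = 0.167, and -4.35 ± 2.06 for F0_Dep against F0_Ctl, with an edgeR adjusted p = 0.267. The part of choroid plexus in these values was not tested.

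**Figure D4:**
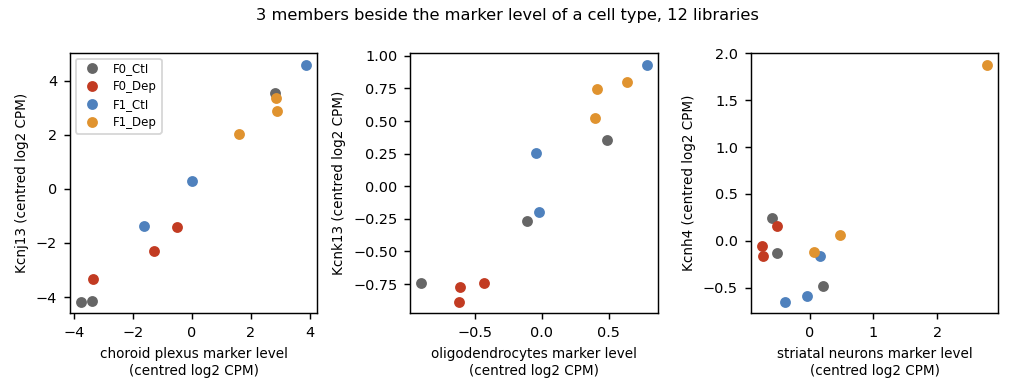
Level of Kcnj13 beside that of choroid plexus markers, of Kcnk13 beside oligodendrocyte markers and of Kcnh4 beside striatal neuron markers, all as centred log2 CPM, with 1 point for each of the 12 libraries coloured by group. The libraries with the highest choroid plexus level have the highest Kcnj13, those with low oligodendrocyte level have low Kcnk13, and F1_Dep 1 stands alone for Kcnh4 at a striatal level of 2.78.

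Kcnh4, Kcna5 and Kcnj12, named after their values were seen, were highest in F1_Dep 1, the library with the highest striatal marker level. There they stood at 19.5, 5.76 and 7.46 CPM, against a highest value of 6.23, 1.81 and 5.32 in the other 11 libraries. The edgeR adjusted p for F1_Dep against F1_Ctl was 0.201 for Kcnh4, 0.252 for Kcna5 and 0.387 for Kcnj12. The summed CPM of the 11 striatal markers was 1868 in F1_Dep 1 and 301 to 527 in the others, and its part in these values was not tested.

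Of the remaining leak subunits, Kcnk1 had 130, 92.1 and 99.9 CPM in F0_Ctl, 104, 100 and 106 in F0_Dep, 113, 108 and 128 in F1_Ctl, and 85.7, 101 and 94.1 in F1_Dep. F1_Dep lay below F1_Ctl without overlap, by a log2 fold change of -0.31 ± 0.12 with an edgeR adjusted p = 0.272. Kcnk2, a leak channel sensitive to stretch, had 56.2, 45.3 and 47.7 CPM in F0_Ctl, 42.5, 52.7 and 50.5 in F0_Dep, 56.3, 46.0 and 50.3 in F1_Ctl, and 64.0, 53.5 and 51.3 in F1_Dep. Its groups overlapped in CPM in all comparisons, and its edgeR adjusted p for any difference among the 4 groups was 0.531. In FPKM F1_Dep lay above F0_Ctl and F0_Dep. The limma adjusted p on the log2(FPKM + 1) scale was 0.289 and 0.126 for these. Kcnk10, of the same stretch-sensitive branch and the member with the smallest edgeR adjusted p for F1_Dep against F1_Ctl, was named after its values were seen. It had 11, 12.3 and 13.9 CPM in F0_Ctl, 13.7, 10.9 and 11.6 in F0_Dep, 12.8, 14.3 and 10.8 in F1_Ctl, and 6.69, 8.61 and 7.97 in F1_Dep. F1_Dep lay below every library of the other groups, by a log2 fold change of -0.70 ± 0.16 against F1_Ctl (edgeR adjusted p = 0.0934), -0.68 ± 0.16 against F0_Ctl (edgeR adjusted p = 0.143) and -0.64 ± 0.16 against F0_Dep (edgeR adjusted p = 0.0527). DESeq2 gave an adjusted p = 0.00663, 0.013 and 0.00754 for these. On the log2(FPKM + 1) scale the difference was -0.12 ± 0.17 against F0_Ctl (limma adjusted p = 0.720) and -0.34 ± 0.17 against F0_Dep (limma adjusted p = 0.192), and in FPKM F0_Ctl 1 (0.667) lay below every F1_Dep library.

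Kcnn2 and Kcnn3 shape the pause after a spike. Kcnn2 had 34.7, 31.5 and 19.2 CPM in F0_Ctl, 31.7, 34.0 and 33.3 in F0_Dep, 21.3, 28.2 and 19.3 in F1_Ctl, and 22.9, 28.8 and 30 in F1_Dep. F0_Ctl 3 and F1_Ctl 3 were the lowest, and its edgeR adjusted p among the 4 groups was 0.317. Kcnn3 had 15.3, 18.7 and 16.5 CPM in F0_Ctl, 25.4, 22.2 and 25.6 in F0_Dep, 18.9, 19.4 and 16.5 in F1_Ctl, and 26.5, 16.8 and 16.0 in F1_Dep. F0_Dep lay above F0_Ctl without overlap, by a log2 fold change of 0.54 ± 0.18 with an edgeR adjusted p = 0.133, and F1_Dep 1 was the highest library of all.

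F1_Dep against F1_Ctl compares offspring of depressed and of normal males. No member passed the edgeR test, against 0.167% of all genes, and 9 had an unadjusted p under 0.05, against 14.8%. DESeq2 called 1 member, Kcnk10, against 3.51% of its genes, and limma voom with library weights 3, against 9.38%. Without F1_Ctl 1, edgeR called 1, against 4.11% of all genes. All 3 F1_Dep libraries lay above all 3 F1_Ctl libraries for 7 members, against 8.72% of all genes, and below them for 4, against 10.3%. The median log2 fold change of the members was 0.068, against -0.019 over all genes, with 0.120 without F1_Ctl 2 and 0.032 without F1_Dep 3. By subfamily it ran from -0.176 in Kcnj, where 9 of 13 were lower, to 0.301 in Kcnh, where 6 of 7 were higher.

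**Figure D5:**
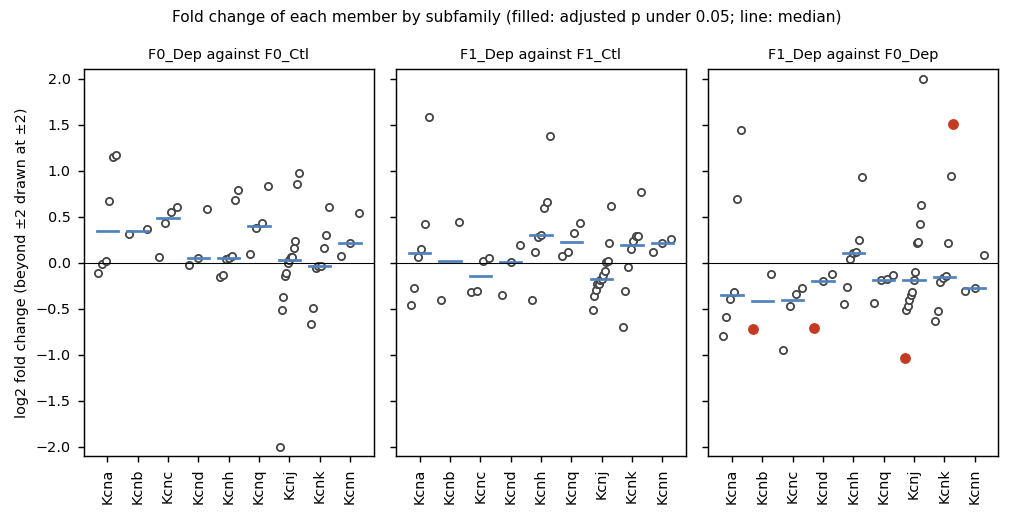
Log2 fold change of each of the 50 members by subfamily in 3 comparisons, with a line at the subfamily median, filled points at an edgeR adjusted p under 0.05 and values beyond ±2 drawn at ±2. Filled points, 4 in number, appear in F1_Dep against F0_Dep alone, where 8 of 9 medians are below 0.

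The offspring of depressed males were also set against normal mice of the parental generation. None of the 50 members passed the edgeR test in F1_Dep against F0_Ctl, against 0% of all genes, and 10 had an unadjusted p under 0.05, against 12.8%. DESeq2 called 2, Kcna6 and Kcnk10, against 2.73% of its genes, while limma voom called 0, against 0.0804%, and limma on FPKM 0, against 0.268%. All 3 F1_Dep libraries lay above F0_Ctl for 6 members, against 9.09% of all genes, and below for 5, against 10.5%. The median log2 fold change was 0.102, with 0.019 without F0_Ctl 3 and 0.059 without F1_Dep 3, against -0.015 over all genes. This comparison shares the F0_Ctl libraries with that of F0_Dep, and the F1_Dep libraries with the 2 others of F1_Dep.

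The control groups were also compared. In F1_Ctl against F0_Ctl no member passed by edgeR, against 0% of all genes, or by DESeq2 (0%) or limma voom (0%), and without F1_Ctl 1 edgeR called 1, against 2.43% of all genes. An unadjusted edgeR p under 0.05 was seen for 1 member, against 5.9% of all genes, and no member was without overlap in either direction, against 2.72% above and 3.35% below. The median log2 fold change was -0.004. Over single omissions it changed sign, from -0.068 without F0_Ctl 3 or F1_Ctl 1 to 0.048 without F1_Ctl 3.

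Whether the F1 difference differed from the F0 difference was tested as an interaction. No member passed by edgeR, against 0.068% of all genes, and 11 had an unadjusted p under 0.05, against 13.4%. The smallest adjusted p was 0.128, for Kcnd3, with a difference of -0.93 ± 0.23 between the log2 fold changes. DESeq2 called 4 members, against 3.02% of its genes, and limma voom 2, against 2.19%. Without F0_Ctl 3 edgeR called 1, against 1.09% of all genes, and without F1_Ctl 3 it called 2, against 0.764%. In the test of any difference among the 4 groups edgeR also called 0, against 0.457% of all genes, with 19 at an unadjusted p under 0.05, against 24.3%. DESeq2 called 16, against 15.3%, and limma voom 8, against 8.67%. Without F0_Ctl 2 or F0_Ctl 3 edgeR called 2, against 2.09% and 3.48% of all genes, without F1_Ctl 1 it called 11, against 16%, and without F1_Ctl 3 it called 4, against 3.08%.

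Genes that work with the pore subunits were followed as a list of 55, of which 49 were tested. They hold the Kv beta and KCNE subunits, the A-type partners, the silent Kv subunits, the large-conductance calcium-activated and the sodium-activated channels, the sulfonylurea receptors, the HCN channels and the anchoring proteins of Kcna, Kcnb and Kcnq. In F1_Dep against F0_Dep 3 of 49 passed the edgeR test, against 2.87% of all genes, all lower, against 1.56%. All 3 are silent Kv subunits, which form no channel alone and modify those of Kcnb. Kcng1 had 43.1, 39.3 and 41.8 CPM in F0_Dep and 20.3, 25.4 and 21.7 in F1_Dep, a log2 fold change of -0.88 ± 0.18 with an edgeR adjusted p = 0.0332. Kcng2 had 31.7, 27.6 and 36.4 CPM in F0_Dep and 12.4, 20.5 and 17.4 in F1_Dep, at -0.92 ± 0.18 with an edgeR adjusted p = 0.0323. Kcng3 had 1.79, 1.5 and 1.58 CPM in F0_Dep and 0.257, 0.172 and 0.450 in F1_Dep, at -2.45 ± 0.53 with an edgeR adjusted p = 0.0387. The groups did not overlap for any of the 3, and 20.3% of all genes likewise lay wholly lower. Of the 9 silent subunits tested 5 were lower and 4 higher, with a median log2 fold change of -0.027. In F0_Dep against F0_Ctl 0 of the 49 partners passed by edgeR, with 27 higher and 22 lower and a smallest adjusted p of 0.0752, and in F1_Dep against F1_Ctl 0 passed, with 23 higher and 26 lower and a smallest adjusted p of 0.114.

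Kcnk4, a further stretch-sensitive leak subunit with no row in the count table used here, had an FPKM of 2.37, 2.62 and 6.35 in F0_Ctl, 4.45, 4.36 and 4.72 in F0_Dep, and 4.91, 4.04 and 4.18 in F1_Dep. F0_Ctl 3 was its highest library and the groups overlapped, with a limma adjusted p = 0.400 for F0_Dep against F0_Ctl on the log2(FPKM + 1) scale. Kcnk18 was listed in 4 of the 9 libraries, at 0.0215 to 0.0430 FPKM.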

How the data were processed

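Hippocampal RNA of 12 mice was sequenced from a stranded mRNA kit, per the labels' protocols. Deposited for all 12 libraries were expected counts per gene, of which 27.2% were not whole, and the FPKM values of 9 libraries, as the authors made them, were used too. HISAT2, Cufflinks 2.2.1 and mm10 stand in the submitters' processing notes without roles. Counts were rounded, filtered with filterByExpr and scaled by TMM, and all 4 groups were fitted in edgeR 4.0.16 (R 4.3.3) by quasi-likelihood, with Benjamini-Hochberg adjustment over 16178 genes. FPKM was tested by limma 3.58.1 on log2(FPKM + 1), for 13820 genes at 1 or more in 3 libraries, which understates changes of low genes. Among these genes were 44 members. DESeq2 1.42.0, limma voom, other scalings and filters, a replicate block and omitted libraries were alternatives. The code was tested on simulated data.

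Members and lists were chosen with earlier results of these data known. Named were members past the threshold, the member of highest FPKM and that of smallest p among the 4 groups in each subfamily, and 16 set genes. Symbols were found for 35202 gene IDs and not for 610. Sequences came from GENCODE M21 on GRCm38, where 99.97% of 26305 gene positions overlapped the same gene. Values of 3 members that the rule names and some sequences are not reported here; these members stay in all counts, medians and sums.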

Additional observations from a re-analysis of the deposited data

How the results depend on the processing

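Counts of members called depended on the tool and on single libraries, and the share of all genes called, given after each count, moved as well. In F0_Dep against F0_Ctl, 0 members (0.494%) became 7 by DESeq2 (7.47%), 2 without a count filter (0.586%), 5 without F0_Ctl 3, F1_Ctl 3 and F1_Dep 1 together (3.1%), 5 by limma voom (2.83%), 14 by limma on FPKM with either pseudocount (21.2% and 21.1%), 6 at an adjusted p under 0.1 (4.15%), and 0 to 7 over single omissions (0.0301% to 2.9%). In F1_Dep against F0_Dep, 4 (2.87%) became 9 by DESeq2 (8.85%), 18 with only these groups fitted (24%), 11 without the 3 libraries (8.25%), 22 by voom (29.8%), 9 and 8 in FPKM (12% and 11.4%), 9 at 0.1 (8.66%), and 0 to 7 over omissions (0.0482% to 6.98%). In F1_Dep against F1_Ctl, 0 (0.167%) became 1 by DESeq2 (3.51%), 1 without the 3 libraries (2.06%), 3 by voom (9.38%), 1 at 0.1 (1.03%), and 0 to 1 over omissions (0% to 4.11%). In F1_Dep against F0_Ctl, 0 (0%) became 2 by DESeq2 (2.73%) and 3 without the 3 libraries (3.8%), and in F1_Ctl against F0_Ctl it was 0 to 1 over omissions (0% to 2.43%). For the interaction, 0 (0.068%) became 4 by DESeq2 (3.02%), 5 without the 3 libraries (2.94%), 2 by voom (2.19%), and 0 to 2 over omissions (0% to 1.09%). For the 4 groups, 0 (0.457%) became 16 by DESeq2 (15.3%), 2 without a filter (1.85%), 9 without the 3 libraries (7.38%), 8 by voom (8.67%), 5 at 0.1 (7.23%), and 0 to 11 over omissions (0.0241% to 16%). The cause was not tested.

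The members' median log2 fold change in F0_Dep against F0_Ctl, 0.075, was 0.207 and 0.228 in FPKM with pseudocounts of 1 and 0.1, and 0.073 to 0.257 over omissions. It was -0.247 to -0.164 over omissions in F1_Dep against F0_Dep, and in F1_Dep against F0_Ctl it was -0.051 without the 3 libraries. Kcnj13 in F1_Dep against F1_Ctl turned from -0.24 to 3.54 without the 3 libraries, the cause of which was not tested. Of 3424 gene results under alternatives, 3290 kept their direction and side of the threshold or passed in neither. Among these were 127 that passed in neither and changed sign. A further 103 newly passed, 30 were lost and 1 reversed with a pass in the main fit or the alternative. Of 24 alternatives, Kcnk13 passed in 18, Kcnb2 in 17, Kcnj6 in 16 and Kcnd3 in 15. A minimum mean CPM of 0.5 gave 53 members, and 2 gave 46.

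Replicate numbers did not pair the mice: 2 of 18 same-numbered pairs correlated above 0.1, over a range of -0.176 to 0.498. With a replicate block, 2 members were called in F1_Dep against F0_Dep, against 1.09% of all genes, and 0 in the other comparisons. With 3 mice a group, differences within the spread of the libraries were not detectable.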
